A study of Mus musculus with 2 samples.

Results

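The genes described here are 10 genes of hepatic stellate cells and of fibrogenesis other than collagens, namely Acta2, Des, Reln, Pdgfrb, Timp1, Tgfb1, Lox, Loxl1, Dcn and Lum. They were taken by name from the rows that both count tables share, and all 10 of 10 names were found among the 55421 genes listed. Mouse liver RNA was sequenced in 2 libraries, 1 for each genotype. The first came from WT mice that carry floxed Rcrin alleles and the second from mice with a conditional knockout of Rcrin, and each carries the label of 8 weeks. The sources used here name neither the Cre driver nor the cells that lost Rcrin, and they do not say how many mice stand behind a library. The tables of gene names used here hold no entry called Rcrin, so its level was not analysed here and the knockout label was not checked in these counts.

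Stellate cells lie between hepatocytes and the sinusoidal endothelium and store vitamin A as retinyl esters while quiescent. On liver injury they turn into contractile, matrix-producing myofibroblasts, a step driven by platelet-derived growth factor and transforming growth factor beta. Desmin and reelin are known from stellate cells in either state, alpha smooth muscle actin marks the activated state, and lysyl oxidases, decorin and lumican act on collagen once it has been secreted. Acta2 and Des are also genes of vascular smooth muscle, Dcn and Lum of portal fibroblasts, and Tgfb1 of macrophages and endothelium.

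Depth was 65121596 counts for WT and 63587567 for the knockout. A single library for each genotype leaves the spread between mice unknown, so no test could be made and each difference compares these libraries, not the genotypes. A log2 ratio is that of the knockout over the WT library after scaling for depth and composition, and its 95% interval is exact and covers counting error only. Genes that averaged 50 counts or more over both libraries were compared, and a gene was counted as higher or lower if it differed by at least 2-fold. Of 12064 genes compared, 8.61% were lower in the knockout library by this limit and 8.45% were higher. Of the same genes, 6123 had a log2 ratio below 0 and 5941 above 0. In bulk tissue, fewer cells of a type and less RNA per cell cannot be told apart. Of 9 markers of stellate cells (Lrat, Hgf, Reln, Des, Pdgfrb, Colec11, Ecm1, Cygb and Dcn), 9 were compared. Their summed level was 256.5 CPM (counts per 1000000 scaled counts) for WT and 251.4 CPM for the knockout. Of these sums Ecm1 alone made up 142.6 and 102.8 CPM (log2 ratio -0.47). Of the 9 markers, 4 stood below 0 and 5 above 0, with 0 lower and 1 higher by 2-fold (Cygb, 1.42). Reln, Des, Pdgfrb and Dcn are also among the genes described here. Whether stellate cell content differed was not tested.

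The contractile and crosslinking genes Acta2 and Loxl1 stood lower in the knockout library, the ligand gene Tgfb1 and the filament gene Des stood lower by less than 2-fold, and Dcn, Reln, Lum and Pdgfrb stood level or slightly higher. Of 8 members compared, 2 were lower by at least 2-fold and 0 were higher, beside 8.61% and 8.45% of all genes compared. The median log2 ratio of these 8 members was -0.25, and that of all genes compared was -0.01. By stricter rules, 1 of 8 (Acta2) had an interval wholly beyond 2-fold, beside 6.18% of all genes compared, and 0 of 8 were lower by 4-fold, beside 2.8%. With a limit of 1.5-fold, 3 of 8 were lower (Tgfb1 as well), beside 18.8%. With a trend of the ratio with GC content removed, 1 of 8 (Acta2) stayed past 2-fold, beside 8.29%. Among 5 members with a mean of at least 500 counts 0 were lower by 2-fold, beside 6.44% of genes at that level. The other members, Timp1 and Lox, had too few counts in these livers to be compared.

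**Figure D1:**
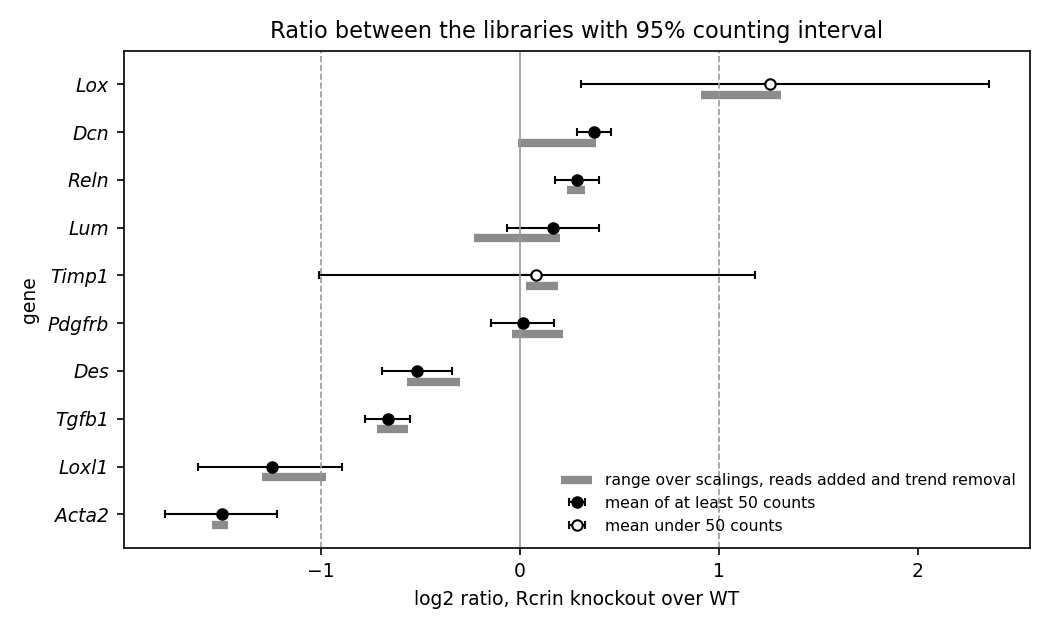
Log2 ratio of the knockout over the WT library for each of the 10 genes (points) with exact 95% counting intervals (black bars), dashed lines at 2-fold and grey bars for the range over other scalings, reads added and removal of GC and length trends. Acta2 at -1.49 and Loxl1 at -1.24 lie beyond the lower dashed line. The open points of Lox and Timp1 mark means under 50 counts.

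Acta2 encodes alpha smooth muscle actin, the filament by which activated stellate cells contract (ENSMUSG00000035783, GRCm38 chromosome 19 from 34241090 to 34255590, minus strand). It had 419 WT and 140 knockout counts, 6.32 and 2.24 CPM. The log2 ratio was -1.49 (interval -1.78 to -1.22), which is 2.81-fold lower, and 4.53% of the genes compared had a lower ratio. The gene has 9 exons and a mean of 279.5 counts. Of 3992 genes that have at least 4 exons and average 50 to 500 counts, 10.3% were lower by at least 2-fold. Reads of Acta2 can be shared with its close paralogs Actg2 (36 and 2 counts), Acta1 (0 and 8) and Actc1 (3 and 0). The 4 actin genes together had 458 and 150 counts, a log2 ratio of -1.52 (interval -1.80 to -1.26), so the lower value did not depend on how reads were split among these 4.

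Des encodes desmin, the intermediate filament used to identify rodent stellate cells (ENSMUSG00000026208, chromosome 1 from 75360329 to 75368579, plus strand). It had 661 WT and 436 knockout counts, 9.97 and 6.98 CPM. The log2 ratio of -0.51 (interval -0.69 to -0.34) lay within 2-fold, and it became -0.30 once a trend of the ratio with GC content was removed.

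Reln encodes reelin, a large secreted glycoprotein that in the liver is made by stellate cells (ENSMUSG00000042453, chromosome 5 from 21884454 to 22344702, minus strand). It had 1260 and 1451 counts in the WT and knockout libraries, 19.0 and 23.2 CPM, and a log2 ratio of 0.29 (interval 0.18 to 0.40). With 65 exons, it is the longest member. Thus the stellate marker genes Des and Reln stood on opposite sides of 0. Of the genes that act with reelin, 5 of 7 were compared, with a median log2 ratio of 0.41, 0 lower and 0 higher by 2-fold. The receptor gene Vldlr had 50 and 92 counts (log2 ratio 0.96, interval 0.45 to 1.49), while the other receptor, Lrp8, had 4 and 0 counts and the adaptor Dab1 had none in either library.

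Promoter windows of 5 of the 10 members (Acta2, Des, Reln, Timp1 and Tgfb1) were in the RefSeq table on GRCm38.p6. Those of Acta2, the lowest member, of Tgfb1, the ligand, and of Reln, the highest of these 5, are printed because they differ in base composition and in the letters they hold. Each runs 5′ to 3′ over the 250 bases before the RefSeq start of the gene. Acta2 is taken from chr19:34255374-34255623 on the minus strand, and its capitals mark CArG boxes, the motif of serum response factor, with at most 1 departure in the A/T centre. Tgfb1 (chr7:25686752-25687001, plus strand) and Reln (chr5:22344706-22344955, minus strand) have the GC box GGGCGG in capitals, read on either strand.
Acta2: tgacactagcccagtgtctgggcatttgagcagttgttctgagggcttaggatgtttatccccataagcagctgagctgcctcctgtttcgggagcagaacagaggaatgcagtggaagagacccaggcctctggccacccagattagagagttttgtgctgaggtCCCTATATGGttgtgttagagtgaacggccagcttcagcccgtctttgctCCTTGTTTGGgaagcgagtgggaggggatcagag
Tgfb1: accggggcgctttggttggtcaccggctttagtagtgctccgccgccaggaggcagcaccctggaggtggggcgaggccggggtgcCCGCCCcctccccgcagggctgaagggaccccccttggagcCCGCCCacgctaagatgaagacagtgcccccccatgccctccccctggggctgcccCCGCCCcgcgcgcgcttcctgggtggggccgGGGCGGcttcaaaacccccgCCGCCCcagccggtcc
Reln: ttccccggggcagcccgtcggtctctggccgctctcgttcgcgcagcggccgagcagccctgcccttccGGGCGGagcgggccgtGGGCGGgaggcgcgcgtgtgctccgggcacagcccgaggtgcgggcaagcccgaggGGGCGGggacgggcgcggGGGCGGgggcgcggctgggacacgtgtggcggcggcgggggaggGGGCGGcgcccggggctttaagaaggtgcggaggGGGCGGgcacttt
The Acta2 window has a GC content of 53.6%, that of Tgfb1 75.2% and that of Reln 80.0%, beside a median of 52.4% over 32841 windows. It holds 2 such CArG boxes, which begin 84 and 34 bases before the start, and 8.59% of all windows hold at least 1. The windows of Des, Reln, Timp1 and Tgfb1 hold 0. The GC box occurs 5 times in the Tgfb1 window and 6 times in the Reln window, with no overlaps, and 0 times in the Acta2 window. It occurs 2 times in the Des window, 1 time in that of Timp1, and at least once in 32.7% of all windows. Other motifs were searched as well and are not described here. The matches of CArG boxes and GC boxes do not overlap each other in these windows, and a match describes letters, not a bound site. Of the 250 bases of the Acta2 window, 217 lie inside the gene as GENCODE M21 gives it, the CArG boxes included, because a GENCODE transcript starts further upstream than the RefSeq start.

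Pdgfrb encodes the beta receptor through which platelet-derived growth factor makes stellate cells divide and migrate (ENSMUSG00000024620, chromosome 18 from 61045150 to 61085061, plus strand). It had 667 and 635 counts, 10.1 and 10.2 CPM, and a log2 ratio of 0.0145 (interval -0.14 to 0.17), the value nearest 0 among the 10 genes. Not all of the PDGF ligand genes stood level. Of the other PDGF genes, 4 of 6 were compared, with a median of -0.84, 2 past 2-fold on the lower side and 0 on the higher. Of all genes compared, 8.61% were past it on the lower side and 8.45% on the higher. Pdgfc had 462 WT and 64 knockout counts (log2 ratio -2.76, interval -3.17 to -2.39), and Pdgfb 220 and 87 (-1.25). Pdgfa, with 135 and 142 counts, stood at 0.16, and the alpha receptor gene Pdgfra, with 213 and 149 counts, at -0.43. Pdgfd, with 44 and 8 counts, averaged under 50 counts and was not compared. The receptor genes thus lay within 2-fold, while Pdgfb and Pdgfc lay past it. With the GC trend removed only Pdgfc (-3.07) was past 2-fold, with Pdgfb at -0.996, and only Pdgfc had an interval wholly beyond 2-fold.

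Tgfb1 encodes the main profibrotic cytokine of the liver, secreted in a latent complex that has to be opened at the cell surface (ENSMUSG00000002603, chromosome 7 from 25687002 to 25705077, plus strand). It had 1664 WT and 990 knockout counts, 25.1 and 15.8 CPM. The log2 ratio was -0.66 (interval -0.78 to -0.55), 1.58-fold lower, and 18.8% of all genes compared stood lower by 1.5-fold or more. Its sister ligand Tgfb3 stood at -0.91 on 124 and 62 counts, and Tgfb2 had only 37 and 28 counts.

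The receptor genes of TGF-beta stood on either side of 0. Tgfbr2, the receptor that binds the ligand first, had 413 and 958 counts (log2 ratio 1.30, interval 1.13 to 1.47). Tgfbr1, the kinase it recruits, had 361 and 550 counts (0.69), and the coreceptor Tgfbr3 stood at 0.36. The endothelial receptor gene Acvrl1 (641 and 379 counts, -0.67) and the coreceptor endoglin (Eng, 5910 and 3515 counts, -0.66) stood lower, within 2-fold. They were named after their values were seen. Over the whole list of other TGF-beta pathway genes, 29 of 32 were compared, with a median of -0.27. By at least 2-fold, 2 were lower and 1 was higher (6.90% and 3.45%, beside 8.61% and 8.45% of all genes compared). With the GC trend removed, 3 were lower (Smurf2 as well, at -1.11) and 3 higher (Ltbp2 at 1.09 and Tgfb1i1 at 1.01 as well). Without that removal the lower ones were Lrrc32 (1164 and 251 counts, log2 ratio -2.13) and the shared mediator Smad4 (759 and 315 counts, -1.18). Lrrc32 holds latent TGF-beta on the cell surface. Lrrc32 has 3 exons, and 28.2% of 648 genes with 3 exons differed by at least 2-fold in either direction, beside 17.1% of all genes compared. Nrros, a relative of Lrrc32 with the same task in macrophages, stood at -0.96, and Ltbp2 (0.85) and Tgfb1i1 (0.78) were the next highest after Tgfbr2. With total-count scaling Nrros (-1.01) was past 2-fold as well, which made 3 lower. By an interval wholly beyond 2-fold only Lrrc32 was lower. Ccn2, a direct target of the pathway named here after its value was seen, had 472 and 424 counts and a log2 ratio of -0.07.

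Timp1, on chromosome X from 20870166 to 20874735 (plus strand, ENSMUSG00000001131), encodes the tissue inhibitor of metalloproteinases that activated stellate cells secrete and that slows matrix breakdown. It had only 16 counts in each library, 0.241 and 0.256 CPM, and its interval of -1.01 to 1.18 spans 2-fold in either direction, so a 2-fold difference was not detectable at this depth. The gene lies within Syn1 on the opposite strand and shares 0 exon bases with it. Its relatives were far better measured, Timp2 with 929 and 805 counts (log2 ratio -0.12) and Timp3 with 1022 and 890 (-0.11). Of 28 other matrix proteases and inhibitors, 17 were compared, with a median of -0.29, 0 lower and 1 higher by 2-fold. The higher one was Adamts5, a protease of proteoglycans (68 and 130 counts, 1.01), which came within 2-fold with total-count scaling (0.96), 5 reads added, the GC trend removed (0.68) or an interval required beyond 2-fold. Total-count scaling put Mmp15 past 2-fold on the lower side (-1.01). Mmp15 (-0.96), Mmp9 (-0.86) and Adamts1 (-0.65) were lowest, and Mmp19 stood at 0.40.

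Lox and Loxl1 encode secreted copper enzymes that oxidise lysines of collagen and elastin so that the fibres crosslink. Loxl1 (ENSMUSG00000032334, chromosome 9 from 58287738 to 58313186, minus strand) had 232 WT and 92 knockout counts, 3.50 and 1.47 CPM. Its log2 ratio was -1.24 (interval -1.61 to -0.89), 2.37-fold lower, and it became -0.97, within 2-fold, once the GC trend was removed. The exon sequence of Loxl1 has a GC content of 61.0%, the highest of the 10 genes. Lox (ENSMUSG00000024529, chromosome 18 from 52516067 to 52529867, minus strand) had 13 and 30 counts, 0.196 and 0.480 CPM. Its log2 ratio of 1.26 (interval 0.31 to 2.35) rests on a mean under 50 counts. Without a level filter, 17.6% of all genes with a count were higher by at least 2-fold, and Lox would be 1 of them.

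Other enzymes that crosslink, modify or fold collagen were mostly on the lower side. Of 18 genes, 15 were compared, 13 of them below 0, with a median of -0.62. Of these 15, 1 was past 2-fold on the lower side (6.67%, beside 8.61% of all genes compared) and 0 on the higher. The lower one was Loxl3, a relative of Loxl1, with 185 and 61 counts (log2 ratio -1.51, interval -1.96 to -1.09). Loxl2 (441 and 370 counts, -0.17) and Loxl4 (243 and 241 counts, 0.07) were nearly level, so the values of these relatives ran from -1.51 to 0.07. The collagen chaperone gene Serpinh1 stood at -0.96 and the procollagen processing enhancer Pcolce2 at -0.93. With total-count scaling Serpinh1 (-1.01), and with the GC trend removed Pcolce2 (-1.09), was past 2-fold as well, which made 2 lower in each case. The transglutaminase gene Tgm2 was highest at 0.35. Their substrates, 23 collagen chains, had a median of -0.51 over 19 compared. Of these 19, 3 were lower (15.8%, beside 8.61% of all genes compared) and 0 higher (beside 8.45%). The lowest were Col15a1 (540 and 106 counts, -2.26), Col1a1 (945 and 279 counts, -1.67) and Col6a1 (-1.31), and the highest were Col5a3 (0.75) and Col4a5 (0.71). With the GC trend removed Col5a3, at 1.02, was past 2-fold, which made 1 chain higher.

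Dcn and Lum encode decorin and lumican, small leucine-rich proteoglycans that bind collagen and control the width of its fibrils. They neighbour each other on chromosome 10, Dcn from 97479609 to 97518143 (ENSMUSG00000019929) and Lum from 97565128 to 97572703 (ENSMUSG00000036446), on the plus strand. Dcn had 2011 WT and 2455 knockout counts, 30.3 and 39.3 CPM, the most counts of the 10 genes in each library. Its log2 ratio was 0.37 (interval 0.29 to 0.46), the highest of the 8 members compared, and it became -0.0069 once the GC trend was removed. Lum had 308 and 326 counts, 4.65 and 5.22 CPM, and a log2 ratio of 0.17 (interval -0.06 to 0.40), which became -0.23 without the GC trend. The GC contents of Dcn (42.4%) and Lum (41.9%) are the lowest of the 10 genes, so these proteoglycan genes had no firm direction. Lum has only 3 exons, the fewest of the members.

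Other proteoglycan genes of this family differed among themselves. Of 14, 4 were compared, with a median of -0.47, 0 lower and 1 higher by at least 2-fold. Biglycan (Bgn), the closest relative of decorin, had 7377 and 4110 counts (log2 ratio -0.76), Podn stood at -0.51 and Prelp at -0.43. Fibromodulin (Fmod), which also has 3 exons, was the higher one with 112 and 218 counts (1.04, and 0.99 with total-count scaling). Of 34 further matrix proteins, 29 were compared, with a median of -0.19. Of these 29, 5 were lower (17.2%, beside 8.61% of all genes compared) and 0 higher (beside 8.45%). Tenascin XB (Tnxb, 760 and 248 counts, -1.53), tenascin C (Tnc, 109 and 40 counts, -1.35) and the laminin chain Lamb1 (-1.21) were lowest. Fibronectin (Fn1, -1.14), which hepatocytes also secrete in bulk, and osteopontin (Spp1, -1.02) were lower too and were picked for mention once their values were known. By an interval wholly beyond 2-fold, 2 of these matrix genes were lower. With the GC trend removed 5 were lower, with Fn1 at -0.99, within 2-fold, and Postn at -1.10, past it. Sparc (0.61), Efemp1 (0.50) and Nid1 (0.41) were highest.

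Per exon length, Dcn and Tgfb1 had the highest levels of the 10 genes in the WT library and Lox the lowest. The scale here is TPM (transcripts per 1000000), counted per length of all exons of a gene, with counting intervals. In the WT library Dcn was at 11.8 TPM (11.3 to 12.4) and Tgfb1 at 11.3 TPM (10.8 to 11.9), which overlap. Acta2 at 6.56 TPM and Des at 6.05 TPM came next and also overlapped, followed by Lum (4.32 TPM) and Pdgfrb (4.18 TPM), which overlapped in turn. Loxl1 (2.42 TPM), Reln (1.82 TPM), Timp1 (0.619 TPM) and Lox (0.0935 TPM) followed with separate intervals. In the knockout library Dcn, at 13.9 TPM, was highest on this scale and Tgfb1 was at 6.48 TPM. Lum (4.40 TPM), Des (3.83 TPM) and Pdgfrb (3.83 TPM) followed with overlapping intervals. Acta2, at 2.10 TPM (1.77 to 2.48), was at place 6, against place 3 in WT, and overlapped Reln at 2.02 TPM (1.91 to 2.12). Loxl1 (0.921 TPM) and Timp1 (0.595 TPM) overlapped, and Lox was lowest at 0.207 TPM. The order depended on the length used. By median transcript length, Tgfb1 stood before Dcn in each library (33.0 and 15.9 TPM in WT, 18.4 and 18.2 TPM in the knockout) and Reln was at place 4 in WT with 6.86 TPM.

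**Figure D2:**
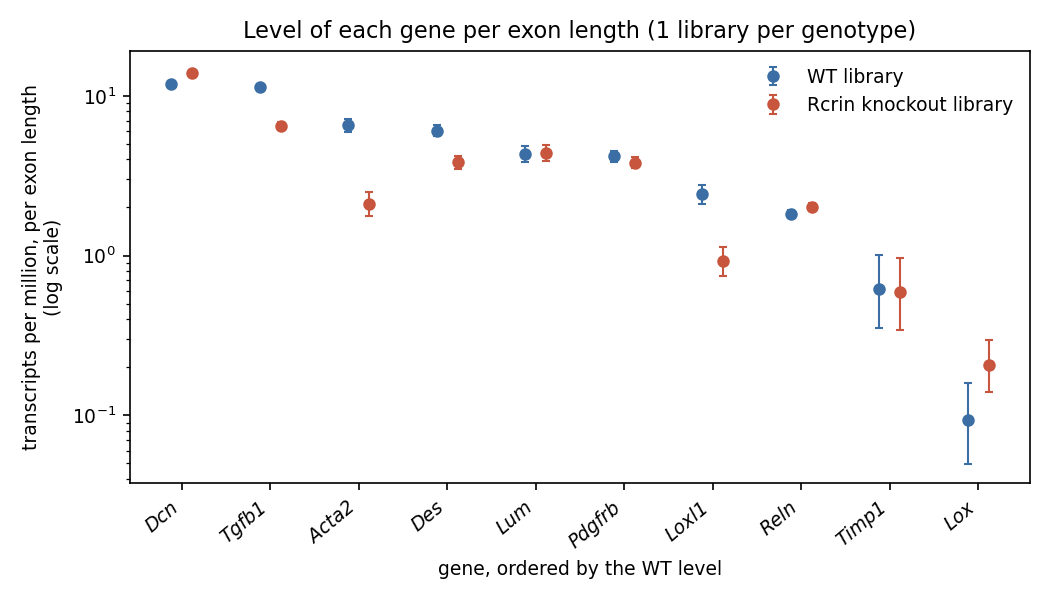
Level of each gene per exon length in TPM (log axis), for the WT library (blue) and the Rcrin knockout library (red), with 95% counting intervals. Dcn leads in each library at 11.8 and 13.9, Acta2 stands at 6.56 and 2.10, and Timp1 and Lox lie below 1 in each library.

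Counts of one member relative to another within the same library do not depend on how the libraries were scaled. For each Dcn count there were 0.208 counts of Acta2 in WT and 0.057 in the knockout, a ratio 3.65-fold smaller (log2 difference -1.87, exact interval -2.17 to -1.58). Loxl1 per Dcn differed by -1.62 (interval -1.997 to -1.26) and Tgfb1 per Dcn by -1.04 (interval -1.18 to -0.89). Reln per Dcn differed by -0.08 (interval -0.22 to 0.06) and Lum per Dcn by -0.21 (interval -0.45 to 0.04), both with intervals that hold 0. With the GC trend removed, the difference per Dcn was -1.50 for Acta2, -0.97 for Loxl1, -0.55 for Tgfb1 and 0.28 for Reln. Des and Pdgfrb per Dcn, at -0.89 and -0.36, became -0.29 and 0.23. Without that removal, Dcn had the highest log2 ratio of the 8 members compared, so among them Acta2 differed most against Dcn. Against Pdgfrb Acta2 differed by -1.51 and against Tgfb1 by -0.83. Against Des, the other filament gene, Acta2 differed by -0.98 (interval -1.32 to -0.65) and by -1.21 with the GC trend removed. Against Loxl1 it differed by -0.25 (interval -0.71 to 0.22), which holds 0, and by -0.54 with the GC trend removed, so whether Acta2 stood lower than Loxl1 beyond counting error depended on that correction.

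**Figure D3:**
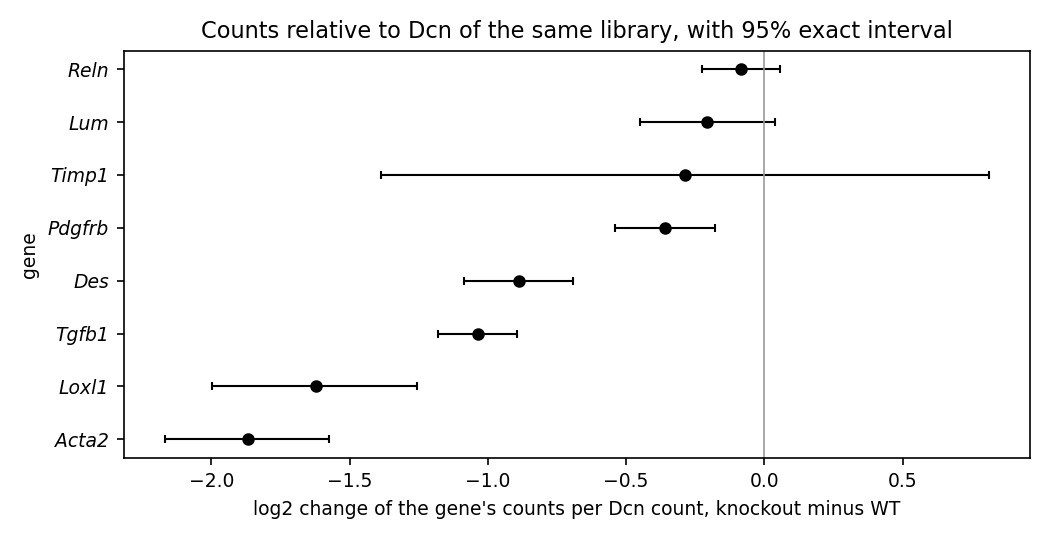
Log2 change, knockout minus WT, of each gene's counts per Dcn count of the same library, with exact 95% intervals that cover counting error. Acta2 at -1.87 and Loxl1 at -1.62 lie farthest from 0, while the intervals of Reln, Lum and Timp1 hold 0. Lox, with 13 and 30 counts, is not drawn.

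Other genes known from quiescent stellate cells lay on either side of 0, 12 below and 10 above. Of 23 genes, 22 were compared, with a median log2 ratio of -0.20 (0.02 with the GC trend removed). By at least 2-fold, 1 was lower and 4 were higher (4.55% and 18.2%, beside 8.61% and 8.45% of all genes compared). Cytoglobin (Cygb), a globin of stellate cells, had 231 and 584 counts (log2 ratio 1.42, interval 1.20 to 1.65). The endothelin receptor gene Ednrb had 221 and 530 counts (1.35) and the transcription factor gene Tcf21, which has 2 exons, 225 and 450 (1.08). Nes, named after its value was seen, stood at 1.00, on the limit, and with total-count scaling, DESeq2 size factors or 5 reads added 3 genes were higher. By an interval wholly beyond 2-fold 2 were higher, and with the count minimum raised to 500 there were 0. The lower one was the metalloreductase gene Steap4, which hepatocytes also express, with 13974 and 3998 counts (-1.72). Lrat, named after its value was seen, makes the retinyl esters that stellate cells store, and had 369 and 244 counts (-0.51) and 2 exons.

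Other contractile genes of activated stellate cells and smooth muscle had a median of -0.73, with 8 of 12 compared below 0. Of these 12, 3 lay past 2-fold on the lower side and 0 on the higher. Vinculin (Vcl, 592 and 222 counts, log2 ratio -1.33), the smooth muscle myosin Myh11 (98 and 37 counts, -1.31) and smoothelin (Smtn, 491 and 194 counts, -1.25) were the lower ones, of which Smtn came to -0.996 with the GC trend removed. Caldesmon (Cald1, 3268 and 4350 counts, 0.50), Tpm2 (0.45) and the myosin light chain kinase Mylk (0.39) were highest. By an interval wholly beyond 2-fold 2 of the 12 were lower, and with a mean of at least 500 counts 0 were. The list holds markers of vascular smooth muscle, whose part in the Acta2 value was not tested. Its summed level over all 19 genes was 193.9 CPM for WT and 171.8 CPM for the knockout. Of these sums Cald1 made up 49.3 and 69.6 CPM, and the other 18 genes 144.6 and 102.2 CPM. Of the genes in this list, Acta1 was listed at 0 in the WT library and Actc1 at 0 in the knockout library.

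**Figure D4:**
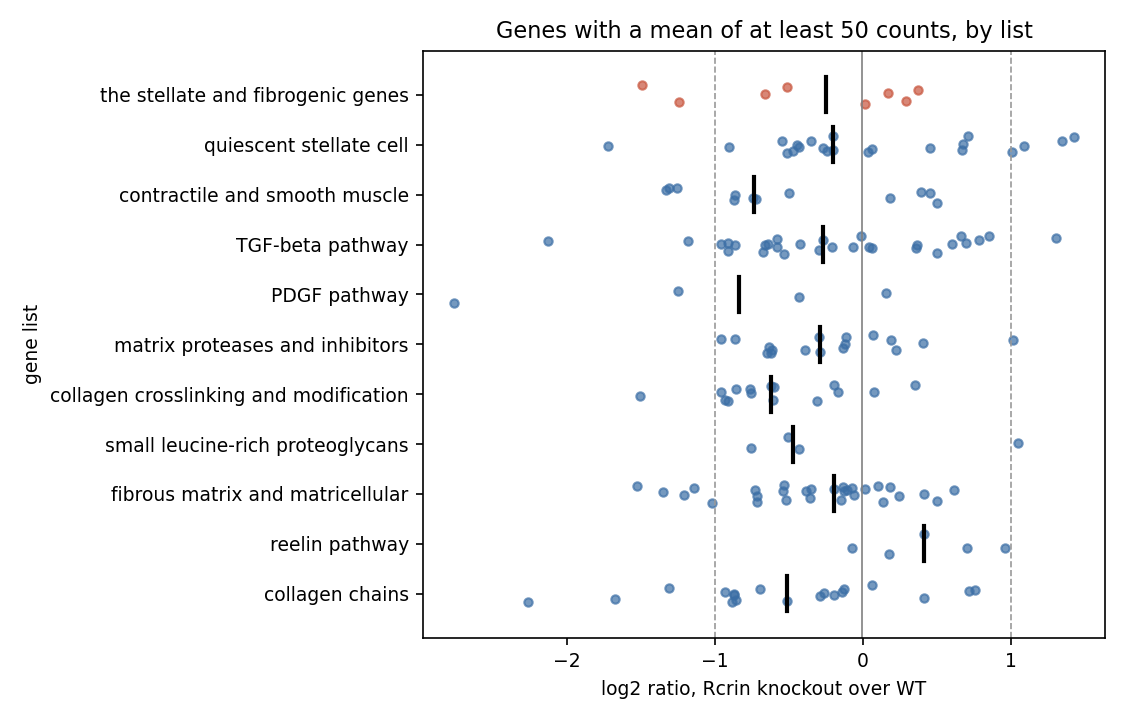
Log2 ratios of the 8 members compared (red) and of the genes of 10 related lists (blue), with the median of each list as a black bar and dashed lines at 2-fold. The medians run from -0.84 (PDGF pathway) to 0.41 (reelin pathway), and the grey line near 0 is the median of all genes compared at -0.01.

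Markers of other cell types that express some of the members were counted beside them. Of all genes compared, 8.61% were lower and 8.45% higher by 2-fold. Kupffer cell and macrophage markers had 13 of 15 compared below 0, 4 lower and 1 higher by 2-fold, and a summed level of 2002 CPM for WT and 1424 CPM for the knockout. Endothelial markers had 12 of 18 below 0, 1 lower and 1 higher, and summed levels of 566 and 540 CPM. The part of these cells in the Tgfb1 value was not tested. Portal fibroblast and mesothelial markers had 2 of 7 compared below 0, 1 lower and 1 higher, with summed levels of 19.1 and 26.4 CPM. Among them Gas1, a gene with 1 exon, was listed at 0 in the WT library with 243 counts in the knockout library, and Gli1 was listed at 0 in the WT library. Upk3b had 274 and 476 counts, and the higher sum of the knockout library rested largely on Gas1 and Upk3b. Entpd2 (389 and 421 counts), Cd34 (172 and 174) and Msln (120 and 147) differed less. Thy1 (176 and 143) and Dpep1 (83 and 20) were those below 0. The part of portal fibroblasts in the Dcn and Lum values was not tested. Neutrophil markers had 9 of 9 below 0, with 5 lower by 2-fold and summed levels of 69.2 and 27.3 CPM, and lymphocyte markers 7 of 10, with 2 lower and summed levels of 59.9 and 30.4 CPM. Of these sums the plasma cell gene Jchain made up 34.9 and 7.57 CPM, and the other 13 lymphocyte markers 25.1 and 22.8 CPM. Cholangiocyte markers had 3 of 6 below 0, with 0 past 2-fold and summed levels of 23.7 and 19.6 CPM. Hepatocyte markers had 5 of 14 below 0, with 1 higher by 2-fold and a summed level of 112120 CPM for WT and 154190 CPM for the knockout, of which Alb made up 50542 and 89625 CPM and the other 13 markers 61577 and 64566 CPM.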

How the data were processed

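Liver RNA was isolated with Trizol and sequenced from SMARTER mRNA-Seq libraries, as the labels' protocols say, 1 for each genotype label. The authors deposited unnormalized read counts, 1 whole number per Ensembl gene and library. The submitters' processing notes name the build GRCm38 (mm10). No aligner, counting program or strand setting is given in the sources used here, and neither is the handling of multi-mapped reads. Names, positions, exons and GC content came from GENCODE M21, which held 55154 of the 55421 genes.

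Scaling used the TMM method of edgeR 4.0.16 in R 4.3.3, with factors of 1.02 for WT and 0.982 for the knockout. Log2 ratios were taken after 0.5 reads, in proportion to library size, had been added to each count. Intervals are exact conditional (Clopper-Pearson) 95% intervals from SciPy 1.17.1. Those of single levels are exact Poisson intervals, and those of ratios between members come from the conditional odds ratio. Since PCR copies were not told apart by molecular identifiers, these intervals cover counting error only and are too narrow. Gene lists were described by counts and medians, with no test. The calculation was tested on simulated counts. The 11 alternatives that changed a ratio or a call included DESeq2 1.42.0 size factors and lowess removal (span 0.3) of GC or length trends.

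The 10 members, the 10 pathway lists and the 7 marker lists were chosen with earlier results of these data known. Named genes are all members, the 3 lowest and 3 highest of each pathway list with counts in both libraries, and direct paralogs or partners of members. Not all of these are printed, and 1 stellate cell marker is not reported here.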

Additional observations from a re-analysis of the deposited data

How the results depend on the processing

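Acta2 stayed lower by at least 2-fold under every scaling, added read count and trend removal run, from -1.54 to -1.46, while Loxl1 ran from -1.30 to -0.97. Of the members, 2 were lower by 2-fold in the comparison described, 0 with a mean of at least 500 counts (which leaves Acta2 and Loxl1 out), 0 with a limit of 4-fold, 1 with an exact interval wholly beyond 2-fold (Acta2) and 1 with the GC trend removed (Acta2). Lox made 1 member higher without a filter on low counts. The median of the members was 0.0486 without that filter and 0.0145 with a mean of at least 500 counts, so its sign depended on which members were counted. With the GC trend removed, Des, Pdgfrb, Dcn and Lum moved beyond their counting intervals, to -0.30, 0.22, -0.0069 and -0.23, and the other 56 of 60 alternative values of single members stayed within them. With a mean of at least 500 counts, the list medians of the TGF-beta pathway, further matrix proteins and matrix proteases became -0.62, -0.52 and -0.13. The median of the contractile list became -0.50. Over the other lists, 93 alternative counts moved by over 1.5 times and 277 did not. Of the medians, 12 moved by more than the standard error of the mean ratio of their list, taken across genes, and 122 did not. All 20 levels per length moved with median transcript length. No paired analysis was possible because there was 1 library per genotype, and leaving out a library was not possible for the same reason. Depth limits Timp1 and Lox, whose counts in a library were 30 or fewer.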
